A study of Homo sapiens with 6 samples.

Results

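The genes described here are the clustered histone genes, which encode the H1, H2A, H2B, H3 and H4 proteins that package newly replicated DNA. They were chosen by name, as every gene whose symbol begins with HIST1H, HIST2H, HIST3H or HIST4H, which gave 51 of the 17448 genes listed. They were followed by RNA-seq in HCC2814, a human lung squamous cell carcinoma (LUSC) line. WT cells (n = 3) received a lentiviral CRISPR vector with a non-targeting control guide, and MLST8-KO cells (n = 3) received one with a guide against MLST8, a subunit of the mTORC1 and mTORC2 kinase complexes. Both kinds of cells were selected with an antibiotic as transduced populations, and the replicates came from separate experiments. Libraries were made from RNA selected for poly(A) tails, and estimated read counts summed to between 14381673 and 15744154 per sample.

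Most mRNAs end in a poly(A) tail, but mRNAs of the clustered histone genes usually do not. They end just after a short conserved stem-loop, which is bound by the stem-loop binding protein SLBP and cut free by the U7 snRNP, so that poly(A) selection is expected to lose most of them. Their transcription is switched on in S phase by NPAT, a coactivator phosphorylated by cyclin E and CDK2, and their mRNAs are degraded when DNA replication stops. Some of these genes are also known to make a longer, polyadenylated mRNA when the first site is passed over. A library of this kind therefore reads mainly those histone transcripts that have a tail, and the amount of the tailless form was not measured.

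The gene models show both kinds of end. In the GENCODE annotation of GRCh38, 32 of the 51 genes have a coding transcript with at least 30 bases after the stop codon, and 28 of these 32 (87.5%) hold the stem-loop consensus there. Over all protein-coding genes with such a transcript, 36 of 18977 (0.19%) hold it. The stem-loops of 6 genes that were well detected are shown from 5′ to 3′ in the sense of the mRNA, because they are the sites at which the tailless form ends. The capitals mark the match to the consensus, and the lower case marks the flanking bases.
HIST1H2BD: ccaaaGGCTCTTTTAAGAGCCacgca
HIST1H2AC: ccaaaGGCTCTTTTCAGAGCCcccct
HIST2H2BE: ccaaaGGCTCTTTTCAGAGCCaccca
HIST2H2AA3: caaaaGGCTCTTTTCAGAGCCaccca
HIST3H2A: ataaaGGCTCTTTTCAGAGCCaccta
HIST1H4H: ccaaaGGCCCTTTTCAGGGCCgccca
The H2A and H2B genes share the stem and differ in the loop or the flanks, whereas HIST1H4H carries another stem. What follows the stem-loop differs more. The letters AATAAA, the signal for a poly(A) tail, begin 1705 bases after it in HIST2H2BE, 946 bases after it in HIST1H2AC and 13 bases after it in HIST2H2AA3. HIST1H2BD has a transcript of 1 exon with AATAAA 12 bases past the stem-loop, and another of 2 exons that skips the stem-loop and holds AATAAA 359 bases after the stop codon. Likewise, HIST1H2AC and HIST1H2BC have 2-exon transcripts without the stem-loop, with AATAAA 889 and 78 bases after the stop codon. In HIST1H4H the letters occur 594 bases after the stem-loop of a 2-exon transcript. No AATAAA follows the stem-loop in the model of HIST3H2A. AATAAA was found in 8 of the 11 tested genes whose models reach at least 30 bases past the stop codon, and in 12 of 21 genes that were too low to test. The models end at very different distances, so these counts cannot show whether the letters set the detected genes apart. For example, the models of HIST2H4A and HIST2H4B run 194 and 690 bases past the same stem-loop. Only that of HIST2H4B holds AATAAA, at 663 bases. The models of HIST1H2BK, HIST1H1C and HIST1H3D stop at the stop codon, so their ends could not be read.

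Levels were spread very unevenly over the 51 genes. TPM is scaled by the gene lengths that the authors used, which need not be those of the GENCODE models above. In WT replicate 1, HIST2H2BE had 341 counts at 19.7 TPM and HIST1H2AC 98 counts at 31.1 TPM. Their longest GENCODE transcripts have 2194 and 1654 bases. Levels compared between genes, classes or partners of a pair therefore depend on the lengths used. On this scale HIST1H2BK took 39.2% of the summed level of all 51, and the 3 highest genes took 61.6%. By class, the 14 H2B genes held 53.8% of the summed TPM, the 13 H2A genes 23.5%, the 6 H1 genes 14.4%, the 9 H4 genes 6.23% and the 9 H3 genes 1.97%. Only 9 genes reached a mean of 10 TPM, whereas 33 lay under 3 TPM and 19 under 1 TPM. In 21 genes at least 1 sample had no count. At this depth a count of 0 still leaves room for 3 counts, which is at most 0.209 CPM. Together the 51 genes received 0.0201% to 0.0279% of the counts of a sample. By position, 38 genes lie in the HIST1 cluster on chromosome 6 (26017085 to 27893843, GRCh38), 11 carry HIST2 names on chromosome 1, and HIST3H2A and HIST3H2BB lie further along chromosome 1.

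**Figure D1:**
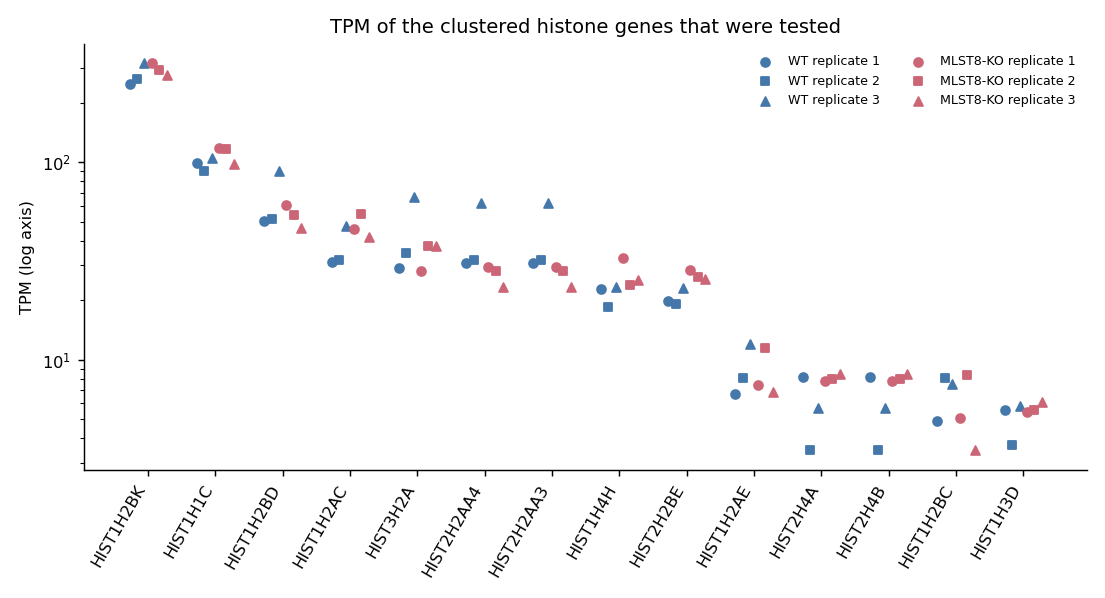
TPM on a log axis of the 14 clustered histone genes that were tested, with 1 point per sample (blue for WT, red for MLST8-KO, shape for the replicate), ordered by mean TPM. HIST1H2BK leads with a mean of 286 TPM and HIST1H3D is last with 5.36 TPM, and the WT replicate 3 triangle stands above the other WT points for HIST1H2BD, HIST3H2A, HIST2H2AA4 and HIST2H2AA3.

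The 14 genes with enough counts to be tested held 96.5% of the counts of all 51. Among them HIST2H2AA3 and HIST2H2AA4 share all values, as do HIST2H4A and HIST2H4B, and each copy is counted as a gene of its own throughout. By the quasi-likelihood test of edgeR, adjusted by Benjamini-Hochberg over 12951 genes, 0 of the 14 rose and 0 fell in MLST8-KO cells. Of all genes tested, 16.3% rose and 15.7% fell. At an unadjusted p under 0.05 in edgeR, 1 gene was higher (HIST2H2BE) and 2 were lower (HIST2H2AA3 and HIST2H2AA4), against 22.8% and 22.1% of all genes. DESeq2, the method of the study, called 0 higher and 2 lower, where it called 14.9% of 12947 genes higher and 15.5% lower. The groups did not overlap in 1 higher gene (HIST2H2BE) and 2 lower genes (HIST2H2AA3 and HIST2H2AA4), against 24.8% and 24.2% of all genes. Leaving out WT replicate 1 gave 0 higher and 4 lower of the 14, where 20.5% of all genes were higher and 20.2% lower. Leaving out WT replicate 3 gave 2 higher and 0 lower, where 12.5% of all genes were higher and 11.9% lower. The median log2 fold change of the 14 genes was 0.03 (range -0.74 to 0.37), and that of all genes tested was 0.0045. Over all genes, 51.0% of the calls of edgeR were higher with TMM and 62.0% with upper quartile scaling, and 71.0% of the calls of limma on log2(TPM + 1) were higher. In bulk samples, a difference in the share of cells in S phase and a difference in histone mRNA per cell cannot be told apart.

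HIST1H2BK, an H2B gene of the HIST1 cluster, was the highest of the 51. Its level was 249, 265 and 316 TPM in WT replicates 1, 2 and 3 and 317, 292 and 278 TPM in MLST8-KO replicates 1, 2 and 3. The groups overlapped, and the log2 fold change was -0.02 (95% interval -0.26 to 0.23; adjusted p = 0.923, edgeR). Its sign turned positive with upper quartile scaling and on the TPM scale. HIST1H2BD, the third highest gene, stood at 50.1, 51.8 and 89.8 TPM in WT and 60.4, 53.8 and 46.1 TPM in MLST8-KO samples. WT replicate 3 lay above all other samples, and the remaining 5 overlapped. The log2 fold change of HIST1H2BD was -0.37 (95% interval -0.85 to 0.12; adjusted p = 0.220, edgeR). Without WT replicate 3 it was -0.02, and without WT replicate 1 it was -0.54 (adjusted p = 0.0405, edgeR).

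HIST2H2BE encodes an H2B protein from the HIST2 cluster, and it was taken up after its values were seen, because it came closest to a rise. Its level was 19.7, 19.2 and 23.0 TPM in WT and 28.4, 26.1 and 25.5 TPM in MLST8-KO samples. Every MLST8-KO sample lay above every WT sample, though in CPM WT replicate 3 and MLST8-KO replicate 2 both stood at 27.4 after rounding. The log2 fold change was 0.26 (SE 0.11; 95% interval 0.02 to 0.51), and the adjusted p of 0.0928 in edgeR missed the threshold. It passed in edgeR with upper quartile scaling (0.32, adjusted p = 0.0490), in limma on log2(TPM + 1) (0.36, adjusted p = 0.0258) and in edgeR without WT replicate 3 (0.36, adjusted p = 0.0224). DESeq2 gave 0.26 with an adjusted p of 0.144. The fourth tested H2B gene, HIST1H2BC, was low at a mean of 6.22 TPM and had a log2 fold change of -0.39 (95% interval -1.25 to 0.47).

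Among the H2A genes, the strongest difference was in HIST2H2AA3 and HIST2H2AA4, a pair of near-identical copies on chromosome 1. The files give both genes the same value in every sample, so reads were split evenly between them and the copies cannot be told apart. Each copy had 93.5, 99 and 188 counts in WT samples and 92.5, 86 and 72.5 counts in MLST8-KO samples. The MLST8-KO samples all lay below the WT samples, but the lowest WT and highest MLST8-KO sample were only 1 count apart before scaling, and WT replicate 3 was far above the rest. The log2 fold change was -0.74 (SE 0.28; 95% interval -1.36 to -0.12; adjusted p = 0.0643, edgeR). With the counts of both copies summed into 1 gene it was -0.74 (adjusted p = 0.0560, edgeR). DESeq2 called the copies lower at -0.75 (adjusted p = 0.0243). Leaving out WT replicate 1 gave -0.94 (adjusted p = 0.00901, edgeR), and leaving out WT replicate 3 gave -0.31 (adjusted p = 0.249, edgeR).

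HIST3H2A, an H2A gene outside the larger clusters, showed the same sample apart. It stood at 28.9, 34.8 and 66.8 TPM in WT and 28.2, 37.4 and 37.6 TPM in MLST8-KO samples. Except for WT replicate 3, the samples of both groups covered the same range. The log2 fold change was -0.45 (95% interval -1.11 to 0.20; adjusted p = 0.257, edgeR), and it moved to 0.02 when WT replicate 3 was left out and to -0.70 (adjusted p = 0.0332, edgeR) when WT replicate 1 was left out. HIST1H2AC, the H2A gene with the highest level, pointed the other way, with 31.1, 31.8 and 47.4 TPM in WT and 46.0, 54.4 and 41.7 TPM in MLST8-KO samples. Its groups overlapped only through WT replicate 3. The log2 fold change was 0.26 (95% interval -0.18 to 0.69; adjusted p = 0.331, edgeR), and 0.51 without WT replicate 3 (adjusted p = 0.0417, edgeR). The fifth tested H2A gene, HIST1H2AE, had a mean of 8.73 TPM and a log2 fold change of -0.16 (95% interval -0.85 to 0.52).

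HIST1H1C was the only H1 gene with enough counts. H1 proteins bind the DNA between nucleosomes. HIST1H1C was the second highest of the 51 genes, at 98.8, 90.0 and 105 TPM in WT and 118, 117 and 97.9 TPM in MLST8-KO samples. The groups overlapped (log2 fold change 0.07, 95% interval -0.17 to 0.31; adjusted p = 0.638, edgeR). With that of HIST1H2BK and HIST2H2BE, this was among the narrowest intervals, and it covered changes no larger than 0.31 in either direction.

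H3 and H4 form the central tetramer of the nucleosome core, and most of their genes had low levels. HIST1H4H led the H4 genes at 22.7, 18.4 and 23.3 TPM in WT and 32.5, 23.8 and 25.3 TPM in MLST8-KO samples. All 3 MLST8-KO values exceeded the WT values on this scale, but they overlapped in CPM, and the log2 fold change was 0.25 (95% interval -0.25 to 0.76; adjusted p = 0.410, edgeR). HIST2H4A and HIST2H4B, again a pair with identical values, had a mean of 6.92 TPM each and a log2 fold change of 0.37 (95% interval -0.40 to 1.15). HIST1H3D was the only H3 gene tested, at 5.36 TPM, with a log2 fold change of 0.08 (95% interval -0.47 to 0.62). Its counts and those of HIST1H2AD were not whole in most samples, but add up to a whole number in each. The values of both genes therefore depend on how reads were assigned between them. For 11 of the 14 genes the 95% interval of the log2 fold change held 0.

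WT replicate 3 stood apart from the other WT samples in several genes. Among the 14 tested genes it was the highest WT sample in 11 and the highest of all 6 samples in 8. Its CPM exceeded the mean of WT replicates 1 and 2 by a ratio of 1.03 to 2.19 (median 1.31), and the ratio reached at least 1.5 in 6 genes. Over all genes tested the median ratio was 0.998. The largest ratios were 2.19 for HIST3H2A, 2.08 for HIST2H2AA3 and HIST2H2AA4, and 1.82 for HIST1H2BD. The same sample was the lowest of all 6 in 29 of 33 genes of S phase entry and DNA replication, with a median ratio of 0.734. Without this sample the log2 fold change moved from -0.45 to 0.02 in HIST3H2A, from -0.74 to -0.31 in HIST2H2AA3 and from -0.37 to -0.02 in HIST1H2BD. Whether the histone values and the replication values of this sample are linked was not tested. The sum over all 51 genes was 205, 213 and 290 CPM in WT and 249, 225 and 217 CPM in MLST8-KO samples. These ranges overlapped, and the log2 ratio of the group means was -0.03.

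**Figure D2:**
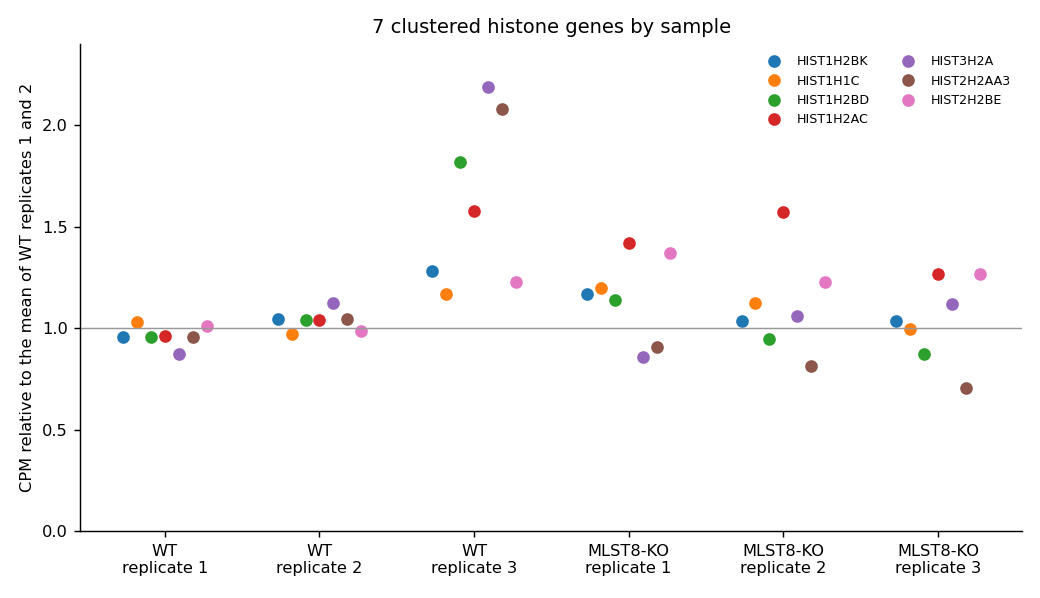
CPM of 7 clustered histone genes in each sample, divided for each gene by the mean of WT replicates 1 and 2, with 1 point per gene and sample. In WT replicate 3, HIST3H2A reaches 2.19 and HIST2H2AA3 2.08, whereas HIST1H1C and HIST2H2BE stay near 1.2, and in MLST8-KO samples HIST1H2AC and HIST2H2BE lie above 1.2 and HIST2H2AA3 below 1.

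The other 37 genes did not have enough counts to be tested, with at most 18.1 counts in any sample and means of 0.0333 to 3.46 TPM. They were 5 H1 genes (HIST1H1A, HIST1H1B, HIST1H1D, HIST1H1E and HIST1H1T), 8 H2A genes (HIST1H2AD, HIST1H2AG, HIST1H2AI, HIST1H2AK, HIST1H2AL, HIST1H2AM, HIST2H2AB and HIST2H2AC) and 10 H2B genes (HIST1H2BE, HIST1H2BF, HIST1H2BG, HIST1H2BH, HIST1H2BJ, HIST1H2BL, HIST1H2BN, HIST1H2BO, HIST2H2BF and HIST3H2BB). The rest were 8 H3 genes (HIST1H3B, HIST1H3E, HIST1H3F, HIST1H3H, HIST1H3J, HIST2H3A, HIST2H3C and HIST2H3PS2) and 6 H4 genes (HIST1H4C, HIST1H4D, HIST1H4E, HIST1H4I, HIST1H4J and HIST1H4K). In 11 of them no sample reached 3 counts.

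Summed over these 37 genes, the counts were 110, 94.5 and 104 in WT samples and 163, 130 and 132 in MLST8-KO samples. All MLST8-KO sums lay above the WT sums, with a log2 ratio of 0.46 in counts and 0.36 in CPM. The H2A and H3 sums showed the same order. The 8 low H2A genes summed to 32, 17.2 and 25.3 counts in WT and 60.1, 44.2 and 35.2 counts in MLST8-KO samples. Of these, HIST1H2AD gave 0, 2.19 and 9.32 counts in WT and 18.1, 1.16 and 5.18 counts in MLST8-KO samples. Its counts were not all whole, and without this gene the H2A sums overlap between groups. The 8 low H3 genes summed to 11, 20 and 22 counts in WT and 35, 30 and 37.1 counts in MLST8-KO samples. In contrast, the H2B and H4 sums overlapped between groups. The 5 low H1 genes ran the other way, at only 5, 6 and 5 counts in WT and 4, 2 and 3 counts in MLST8-KO samples. Gene by gene, the groups did not overlap in 5 genes that were higher and 2 that were lower in MLST8-KO samples. Of all 4497 genes that failed the filter, 5.8% were higher and 6.14% lower in this sense. The 5 higher genes, named after their values were seen, were HIST1H2AM, HIST1H2AL, HIST1H3E and the copies HIST2H3A and HIST2H3C. The 2 lower genes were HIST1H2BN and HIST1H1B. HIST1H2AM had 7, 4 and 3 counts in WT and 13, 10 and 11 counts in MLST8-KO samples. HIST2H3A and HIST2H3C share all values, at 2.5, 4.5 and 4.5 counts each in WT and 8.5, 7 and 7.5 in MLST8-KO samples.

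**Figure D3:**
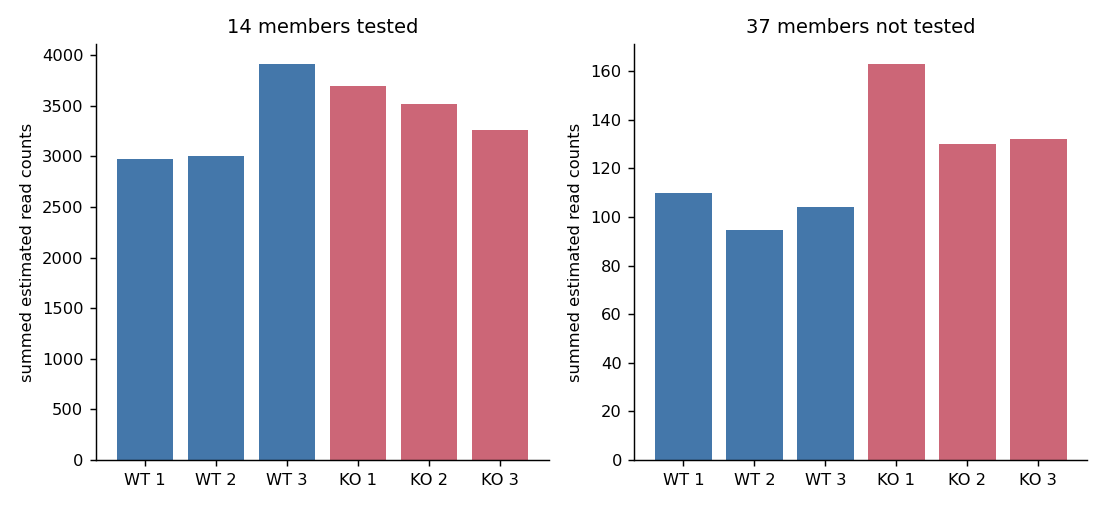
Summed estimated counts per sample (bars, blue for WT, red for MLST8-KO, labelled KO) of the 14 clustered histone genes that were tested and of the 37 that were not, each on its own axis from 0. The tested genes overlap between groups, with WT replicate 3 highest, and the genes not tested stand at 94.5 to 110 counts in WT and 130 to 163 in MLST8-KO samples.

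Many H2A and H2B genes lie head to head, so that a single short stretch of DNA serves as the promoter of both. Starts on opposite strands within 1000 bases gave 9 pairs among the 51 genes. Of these, HIST1H3J and HIST1H2BO are an H3 and an H2B gene, and HIST1H2BO is also the partner of HIST1H2AM. The ratios that follow are of TPM and depend on the gene lengths used for it. The partners differed most in the HIST3 pair, where HIST3H2A had a mean of 39.0 TPM and HIST3H2BB, with a start 234 bases away, 0.96 TPM, a ratio of 40.6. HIST2H2BE exceeded HIST2H2AC (1.96 TPM, 323 bases away) by a ratio of 12.1, and HIST1H2AC exceeded HIST1H2BC (219 bases away) by 6.76. In these 3 pairs the higher partner was higher in all 6 samples, as was HIST1H2AE over HIST1H2BG (ratio 2.57). HIST1H2AD and HIST1H2BF had a ratio of 6.94, but at 2.06 and 0.297 TPM, and HIST1H2AD was the higher one in 5 samples. This ratio also depends on how reads were assigned between HIST1H2AD and HIST1H3D. In contrast, HIST1H2BJ and HIST1H2AG, at 3.02 and 2.75 TPM, and HIST1H2BL and HIST1H2AI, at 2.96 and 2.29 TPM, differed little, and each partner was the higher one in 3 samples.

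**Figure D4:**
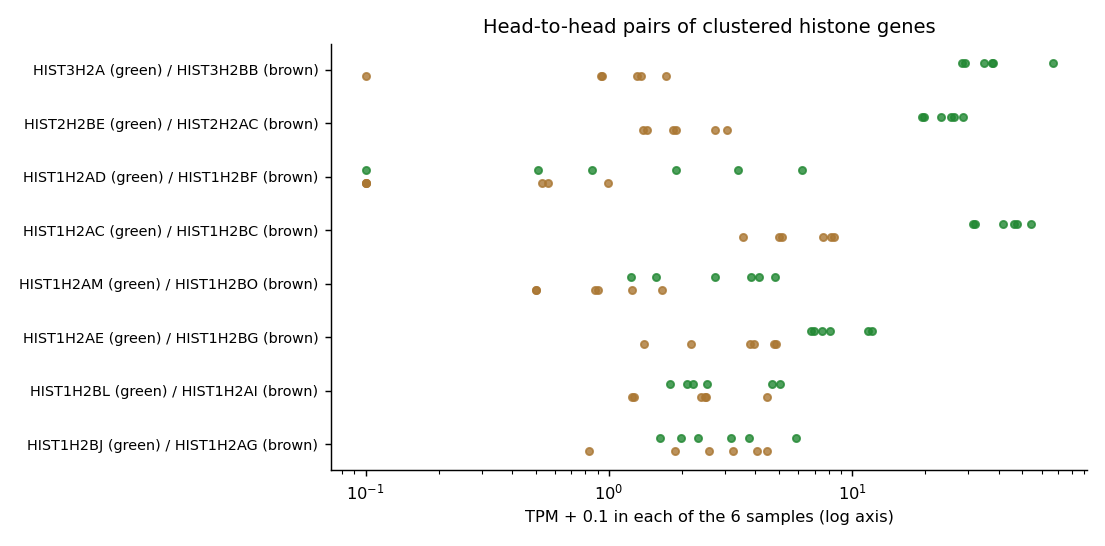
TPM + 0.1 on a log axis in each of the 6 samples for 8 head-to-head pairs of an H2A and an H2B gene, with the partner of higher mean in green and the other in brown. The pair of HIST1H3J and HIST1H2BO is left out. The points of HIST3H2A, HIST2H2BE and HIST1H2AC lie clear of those of their partners, as do those of HIST1H2AE, and the points of the other 4 pairs mix.

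The promoters that these pairs share were read from RefSeq (GRCh38.p14), which gave windows of 300 bases for 49 of the 51 genes. Shown are the windows of HIST2H2BE and HIST3H2A, the members of the most uneven pairs, on the strand of each gene. HIST2H2BE lies at chr1:149886633-149886932 and HIST3H2A at chr1:228457824-228458123, both on the minus strand. Capitals mark the octamer ATTTGCAT, which binds OCT1, the CCAAT box and the TATA box TATAAA, each on either strand. None of the capital stretches overlaps another.
HIST2H2BE: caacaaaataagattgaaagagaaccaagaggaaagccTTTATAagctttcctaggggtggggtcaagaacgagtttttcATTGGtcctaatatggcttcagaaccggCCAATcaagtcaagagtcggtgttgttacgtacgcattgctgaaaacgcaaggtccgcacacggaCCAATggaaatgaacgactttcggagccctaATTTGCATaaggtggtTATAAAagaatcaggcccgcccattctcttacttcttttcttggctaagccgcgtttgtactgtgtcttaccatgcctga
HIST3H2A: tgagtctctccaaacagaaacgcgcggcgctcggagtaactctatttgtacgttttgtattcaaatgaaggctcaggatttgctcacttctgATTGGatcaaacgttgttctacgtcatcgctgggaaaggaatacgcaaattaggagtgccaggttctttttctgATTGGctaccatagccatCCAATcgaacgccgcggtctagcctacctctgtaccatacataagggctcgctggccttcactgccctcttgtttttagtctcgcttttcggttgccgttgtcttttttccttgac
The window of HIST2H2BE holds all 3 motifs, whereas that of HIST3H2A holds CCAAT boxes but neither the octamer nor TATAAA in these letters. The octamer occurs in 38.8% of the 49 windows and in 1.8% of the 27305 promoters of the table. By class it was found in 10 of 14 H2B and 8 of 13 H2A windows, in 1 of 8 H3 windows and in 0 of 6 H1 and 0 of 8 H4 windows. The H3 match is not a separate one, since RefSeq gives HIST1H3D the same window as HIST1H2AD. Windows of head-to-head partners also overlap, so the windows are not independent. CCAAT occurs in 85.7% of the windows against 35.7% of all promoters, and TATAAA in 63.3% against 12% of all promoters. The motifs are shared by genes at high and at low level, and a match is a description of the letters only.

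The genes of DNA replication and histone handling were described from 4 further lists. Of 33 genes of S phase entry and DNA replication, 24 rose and 0 fell in MLST8-KO cells. The median of their log2 fold changes was 0.59. The largest rises were in MCM5, a subunit of the replicative helicase (1.44 ± 0.21, SE; adjusted p = 0.00317, edgeR), and in E2F1, a transcription factor of S phase entry (1.10 ± 0.17, SE; adjusted p = 0.00355, edgeR). CCNE2, encoding a cyclin E, rose by 0.75 (adjusted p = 0.0359, edgeR) and CDK2, its kinase partner, by 0.43 (adjusted p = 0.0113, edgeR). CCNE1, the other cyclin E gene, was at 0.21 and did not pass (adjusted p = 0.164, edgeR). For 9 of the 14 clustered histone genes, with the copies HIST2H2AA3 and HIST2H2AA4 counted separately, the whole 95% interval lay below the median of this list, 0.59.

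Histone chaperones carry histones to DNA. Of 22 chaperone genes, 12 rose and 0 fell, with a median log2 fold change of 0.29. CHAF1B, a subunit of the CAF-1 complex that loads H3 and H4 behind the fork, had the largest rise (0.95 ± 0.18, SE; adjusted p = 0.00524, edgeR), followed by TONSL, a reader of newly made H4 (0.74 ± 0.17, SE; adjusted p = 0.0105, edgeR). This count fell to between 5 and 9 genes when any MLST8-KO sample, WT replicate 2 or WT replicate 3 was left out, and rose to 15, with 2 lower genes, without WT replicate 1. The higher calls over all genes moved likewise, from 2116 of 12951 to between 971 of 13106 and 1634 of 13116. Without WT replicate 1 they rose to 2692 of 13102.

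The factors that switch on histone genes and cut their mRNAs did not move together. Of 18 genes, 1 rose and 1 fell, with a median log2 fold change of -0.10. Without WT replicate 1 there were 2 higher genes, and without MLST8-KO replicate 2 there were 2 lower genes. CPSF3, the nuclease that cuts histone and polyadenylated mRNAs alike, rose by 0.43 (adjusted p = 0.00843, edgeR). NCBP2, a subunit of the cap-binding complex, fell by 0.38 on the log2 scale (adjusted p = 0.00998, edgeR). SLBP, which binds the stem-loop, had 1151, 1165 and 929 counts in WT and 1070, 1103 and 1098 in MLST8-KO samples. The SLBP groups overlapped, with a log2 fold change of -0.11 (95% interval -0.30 to 0.08; adjusted p = 0.354, edgeR). NPAT, the coactivator, had 363, 347 and 296 counts in WT and 396, 507 and 359 in MLST8-KO samples. NPAT also overlapped between groups, with a log2 fold change of 0.20 (95% interval -0.07 to 0.48; adjusted p = 0.231, edgeR).

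Histone variants are encoded by genes outside the clusters, most of which make polyadenylated mRNAs that are not tied to S phase. Of 11 variant genes tested, 3 rose and 1 fell, with a median log2 fold change of 0.18. H2AFY2, a macroH2A gene (0.49; adjusted p = 0.0114, edgeR), and H2AFV, an H2A.Z gene (0.35; adjusted p = 0.00927, edgeR), had the largest rises, and H1F0, a linker histone of resting cells, rose by 0.32 (adjusted p = 0.0135, edgeR). H3F3B, an H3 variant gene, fell by 0.23 on the log2 scale (adjusted p = 0.0373, edgeR). The lower call was lost with upper quartile scaling and with limma on TPM, which both gave 6 higher and 0 lower genes and also shifted the median of all genes upward, to 0.06 and 0.09 on the log2 scale. Without MLST8-KO replicate 1, 0 variant genes were called higher and 0 lower, and without WT replicate 2 there was 1 higher gene. Over all genes these fits called 979 of 13071 and 971 of 13106 higher, against 2116 of 12951 with all samples. They called 850 and 1044 of all genes lower, against 2030 with all samples. H3F3A (0.16), H2AFX (-0.22), H2AFZ (-0.07) and H1FX (-0.16) did not pass, with adjusted p of 0.112, 0.112, 0.490 and 0.163 in edgeR. In level, H3F3A had a mean of 750 TPM, H2AFZ 303 TPM and H3F3B 301 TPM, so that only HIST1H2BK among the clustered genes came near the variants of highest level.

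**Figure D5:**
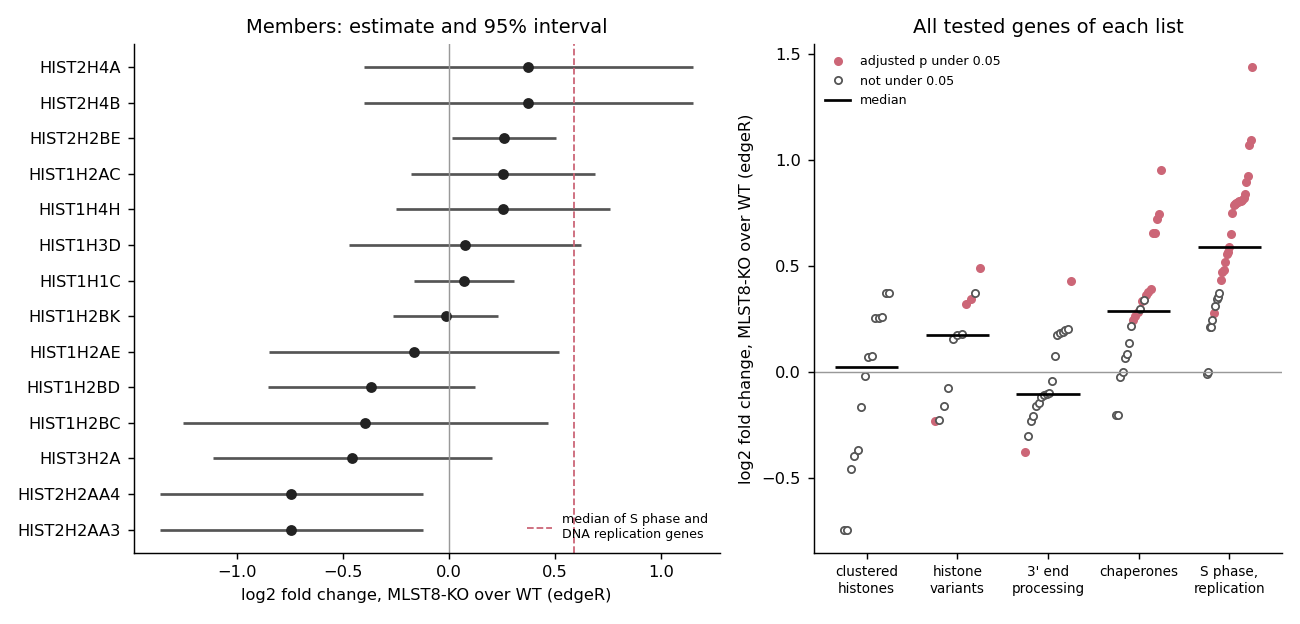
Left, log2 fold change of MLST8-KO over WT in edgeR (points) with its 95% interval (lines) for the 14 clustered histone genes tested. The dashed line is the median of the S phase and DNA replication genes. Right, log2 fold change of every tested gene of the clustered histones and of 4 further lists, filled where the adjusted p was under 0.05, with the median as a bar. No clustered histone gene is filled, against 24 of 33 S phase and replication genes, and the medians are 0.03 and 0.59.

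The identity of the samples was checked in the same table. MLST8 stood at 874, 827 and 842 counts in WT and at 396, 629 and 401 counts in MLST8-KO samples (log2 fold change -0.96, adjusted p = 0.00339, edgeR), so that its mRNA remained in the knockout samples. All 8 squamous markers were detected in every sample, summing to 13888 to 27265 CPM, and all 8 were higher in MLST8-KO samples. This count fell to between 4 and 6 when any MLST8-KO sample or WT replicate 2 was left out. In these fits the higher calls over all genes also fell, to between 971 of 13106 and 1543 of 13083. Of the lung adenocarcinoma markers NKX2-1 was tested and rose (1.81, adjusted p = 0.00281, edgeR), but the 3 markers summed to only 1.80 to 10.7 CPM. Leukocyte markers had at most 1 count in a sample, the 2 endothelial markers summed to 1.73 to 3.44 CPM and the 2 fibroblast markers to 30.8 to 34.2 CPM. The 6 hepatocyte markers summed to 234 CPM in MLST8-KO replicate 1 and to 0.505 to 6.50 CPM elsewhere. Without MLST8-KO replicate 1, 0 clustered histone genes were called in either direction, as with all samples. Of all 13071 genes in that fit, 979 were higher and 850 lower, against 2116 and 2030 of 12951 with all samples. The 10 genes listed for RNAs without a poly(A) tail, other than the clustered histone genes, were not analysed here.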

How the data were processed

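RNA-seq covered 3 WT and 3 MLST8-KO samples of HCC2814 cells, grouped from their labels. After quality and adapter filtering, the authors aligned reads to GRCh38.p12 with HISAT and to reference genes with Bowtie2. For each gene the authors deposited estimated counts without normalization, as well as FPKM and TPM, which are scaled by depth and gene length. FPKM was not tested. A further deposited table holds the authors' own comparisons (fold changes, p-values and q-values) and was not used. The labels and the methods name different RNA extraction kits.

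The design assumed whole counts. Since 12.4% of all counts, and 12.1% of those of the clustered histone genes, were not whole, they were rounded. Genes were tested with edgeR 4.0.16 in R 4.3.3 (TMM, filterByExpr by group, glmQLFit and glmQLFTest, group as the only term), with Benjamini-Hochberg adjustment over all 12951 genes tested, of 17448 listed, and a threshold of 0.05. CPM are counts scaled to library size after TMM. The SE is the absolute log2 fold change over the square root of F, and 95% intervals use the total degrees of freedom of the fit, residual and prior together. The fit was tested on simulated data. Median depth was 14775315 counts in WT and 15453122 in MLST8-KO samples, and the limit for a count of 0 covers counting error only. Replicates differed beyond sampling noise (chi-square per gene 6.71 to 25.2). Alternatives used DESeq2 1.42.0 and limma 3.58.1, and figures used matplotlib 3.10.9. Stem-loops (consensus of the histone stem-loop, sense strand) and AATAAA were searched in GENCODE transcripts, and promoters came from RefSeq, matched by gene identifier. Protein sequences were not used here.

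The clustered histone genes and all lists were chosen with earlier results of these data known. Values in every sample are given for genes past the threshold and for the 8 of highest mean TPM, other tested genes by class, and the rest by name. In each list the 2 largest rises and 2 largest falls among called genes with a mean of at least 50 counts are named. MLST8, SLBP, NPAT, CCNE1, CCNE2, CDK2, E2F1 and variants H2AFX, H2AFZ, H3F3A, H3F3B, H1F0 and H1FX are named whatever their value. Exceptions are said beside their values.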

Additional observations from a re-analysis of the deposited data

How the results depend on the processing

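With 3 samples per group, a change under the half-width of a gene's interval could not be shown, and genes of few counts could not be tested. Of the clustered histone genes called higher, 0 became 1 with upper quartile scaling and with limma on log2(TPM + 1) or log2(TPM + 0.1), in each case HIST2H2BE. In these settings 2546, 2782 and 2764 of all 12951 genes were higher. Of the clustered histone genes called lower, 0 became 2 with DESeq2 and with no filter on low counts, in both cases HIST2H2AA3 and HIST2H2AA4. Over all genes, 2007 of 12947 were lower with DESeq2 and 2023 of 17420 with no filter. Leaving out each sample in turn gave 0 to 2 higher and 0 to 4 lower clustered histone genes. Over all genes these fits called from 971 of 13106 to 2692 of 13102 higher. They called from 850 of 13071 to 2651 of 13102 lower. Without WT replicate 1 the higher gene was HIST1H2AM, which passed the filter only then and only through its MLST8-KO counts, so that nothing is read from it, and the 4 lower were HIST2H2AA3, HIST2H2AA4, HIST3H2A and HIST1H2BD. Without WT replicate 3 the 2 higher were HIST2H2BE and HIST1H2AC. The median log2 fold change was 0.25 with no filter, which let in the genes with few counts. It stayed within the spread between replicates otherwise, as did the log2 ratio of the summed CPM.

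HIST1H2BK turned from -0.02 to 0.041 with upper quartile scaling and to 0.0993 and 0.0997 in limma on log2(TPM + 1) and log2(TPM + 0.1), where the median of all genes shifted to 0.0923 and 0.104. Over the samples left out in turn, HIST1H2BK ranged from -0.10 to 0.11, HIST1H3D ranged from -0.11 to 0.22, HIST1H2AE ranged from -0.40 to 0.13 and HIST3H2A ranged from -0.70 to 0.02. Without WT replicate 3, HIST3H2A was at 0.0212. None of the values of turned sign passed the test.

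Some list counts also moved. Upper quartile scaling and both limma fits gave 6 higher and 0 lower variant genes, and 2 and 3 higher processing genes. Samples left out in turn gave 0 to 4 higher and 0 to 1 lower variant genes, 1 to 2 higher and 1 to 2 lower processing genes, 5 to 15 higher and 0 to 2 lower chaperone genes, 18 to 28 higher replication genes and 4 to 8 higher squamous markers. Whether same-numbered samples shared an experiment is not stated. Their deviations from the group means correlated at 0.105, 0.0565 and 0.140, and every WT sample correlated best with its own number. With the replicate block, 0 clustered histone genes were higher, 0 lower, the median was 0.03, and 0 variant genes were lower. Of all 12951 genes, 2261 were higher and 2157 lower with this block. Summing copies with identical values was chosen after seeing the data and left 0 clustered histone genes higher and 0 lower. Of all 12950 genes, 2116 were higher and 2030 lower with copies summed. The cause of these changes was not tested.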
